A study of Mus musculus with 2 samples.

Results

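Mesothelial marker genes are described here in the stromal vascular cells of mouse epididymal white adipose tissue (eWAT), profiled by droplet single-cell RNA sequencing. The set holds 10 of the 27998 genes in the tables, named by symbol, namely Msln, Upk3b, Upk1b, Lrrn4, Krt19, Krt8, Krt18, Gpm6a, Wt1 and Nkain4. A cell with at least 200 genes and at least 3 of the 10 genes detected stood for a mesothelial cell. By this rule 51 of 2174 cells were mesothelial.

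The study asked how the eWAT stroma changes in obesity. Mice labelled C57BL/6, and C57BL/6J in the study's methods, were fed a low-fat diet (LFD) or a high-fat diet (HFD) for 24 weeks from 6 weeks of age, and the stromal vascular fraction, released by a tissue dissociation kit, gave 1 library per diet. How many mice entered each library is not given in the sources used here, so animals, library preparation and diet cannot be told apart. The labels' treatment text names a low-fat diet for both libraries, whereas the title and the characteristics of each separate LFD from HFD. The LFD library held 1113 barcodes with 7356278 unique molecular identifiers (UMIs, counted molecules) and the HFD library 1144 barcodes with 8412325 UMIs. Median depths were close, at 6197 and 6486 UMIs per barcode, and the libraries shared 0 barcodes. At least 200 genes were detected in 1057 LFD and 1117 HFD cells.

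Mesothelial cells form the thin epithelium-like lining of the body cavities and of the organs and fat pads inside them. The epididymal fat pad carries such a covering. The lining arises from the coelomic mesoderm, and its cells combine keratins and apical surface proteins with genes shared with fibroblasts. Of the 10 genes, Msln encodes the surface glycoprotein mesothelin, and Upk3b and Upk1b encode membrane proteins of the uroplakin family. Lrrn4, Gpm6a and Nkain4 encode further membrane proteins, Krt8, Krt18 and Krt19 are keratins of simple epithelia, and Wt1 is a zinc-finger transcription factor of the coelomic lining.

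Mesothelial cells made up a smaller part of the HFD library than of the LFD library. On LFD, 36 of 1057 cells were mesothelial, a share of 3.41% (interval 2.40 to 4.68). On HFD it was 15 of 1117, a share of 1.34% (interval 0.753 to 2.21). The HFD over LFD ratio of these shares was -1.34 on the log2 scale (-2.20 to -0.48). All ranges are 95% intervals (exact binomial for shares, exact Poisson for levels) that cover counting error only, and with 1 library per diet there was no replicate check and no test.

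Other cells shifted in share as well, so the mesothelial count was also set against them. Fibroblasts were cells with at least 10 Dcn UMIs (decorin, a matrix proteoglycan), endothelial cells had at least 3 UMIs of Cdh5 and Cldn5 together, and macrophages at least 10 UMIs of the complement genes C1qa, C1qb and C1qc together. Cells meeting several of these thresholds, 14 LFD and 26 HFD cells, were left out of the 3 classes. That left 347 LFD and 279 HFD fibroblasts, 149 and 207 endothelial cells, and 230 and 321 macrophages, while 281 and 269 cells fell in no class. The fibroblast share had a log2 ratio of -0.39 (-0.59 to -0.20), against 0.39 for endothelial cells and 0.40 for macrophages. Per 100 fibroblasts there were 10.4 mesothelial cells on LFD and 5.38 on HFD, a log2 ratio of -0.95 (-1.92 to -0.04). Per 100 endothelial cells there were 24.2 and 7.25.

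Depth did not separate the diets within the mesothelial class. The median mesothelial cell held 10430.5 UMIs on LFD and 11225 on HFD, above the 8480 and 7903 of fibroblasts. The study's own filter, 200 to 2500 genes and under 5% mitochondrial UMIs, keeps 5 of the 36 LFD and 2 of the 15 HFD mesothelial cells, against 294 and 352 of all cells. Its gene limit lies below the median of 3315.5 and 3431 genes per mesothelial cell.

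Most cells carried few or none of the 10 genes, and a small group carried nearly all of them. Among LFD cells, 740 carried none of them, 244 carried 1 and 37 carried 2, whereas 16 cells carried all 10. Among HFD cells, 918 carried none, 166 carried 1, 18 carried 2 and 6 carried all 10. Between 3 and 7 detected genes lay 9 LFD and 2 HFD cells, so the threshold of 3 fell at the lower edge of a sparsely filled range. With a threshold of 2 genes, 73 LFD cells (6.91%) and 33 HFD cells (2.95%) would be chosen.

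**Figure D1:**
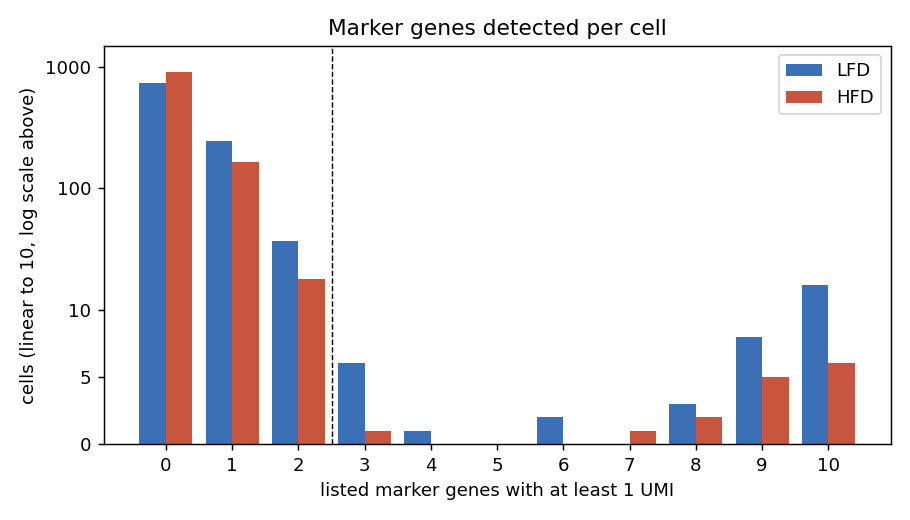
Number of cells (vertical axis, linear to 10 and on a log scale above) by the number of the 10 marker genes with at least 1 UMI (horizontal axis), in the LFD and HFD libraries, with the dashed line at the threshold of 3 genes. Counts fall from 740 and 918 cells at 0 genes to few cells between 3 and 7, then rise to 16 and 6 cells at all 10 genes.

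Cells just outside the threshold mostly met the fibroblast threshold. Of the 37 LFD cells with 2 genes, 31 had at least 10 Dcn UMIs and 24 carried the pair Wt1 and Nkain4. On HFD, 17 of 18 such cells met the Dcn threshold and 16 carried that pair. Only 5 of the LFD cells and 0 of the HFD cells with 2 genes had a UMI of Msln or Upk3b.

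Just inside the threshold, 6 LFD cells and 1 HFD cell carried exactly 3 genes. Of these, 3 LFD cells and the HFD cell carried keratins alone. Another pair of LFD cells was shallow, at 644 and 582 UMIs, and held 2 and 9 UMIs of Slpi, a secreted protease inhibitor. The remaining LFD cell held 1 UMI each of Krt19, Wt1 and Nkain4 among 7445 UMIs, with 177 Dcn, 153 Gsn and 0 Slpi UMIs.

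The label did not hold for all 51 cells. In 5 of them, 4 LFD and 1 HFD, none of Msln, Upk3b, Upk1b, Lrrn4, Nkain4 and Wt1 had a UMI, and they are called keratin-only cells here. This split was made after the values were seen. Together they held 184 Krt8 UMIs (2112 CPM, UMIs per 1000000 UMIs of the class, against 336 CPM in the other 46 cells) and 75 Krt18 UMIs. They held 0 UMIs of Dcn and Slpi and 2 of Vim, the mesenchymal intermediate filament. A Gpm6a UMI appeared in 1 of them.

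Other genes of the keratin-only cells, also chosen after their values were seen, included genes known from epithelia. Epcam, an epithelial adhesion molecule, reached 77 UMIs in these 5 cells and 0 in the other 46. Foxj1, a regulator of motile cilia, had 44 UMIs, and Tmem212 and Ccdc153 had 134 and 117. All 3 were present in 4 of the 5 cells. Lcn2, an antimicrobial lipocalin, had 158 UMIs, and Pax8, a transcription factor, had 13. Adam7, Crisp1, Lcn5 and Rnase9, known from the epididymal epithelium, were at 0 UMIs in every cell of both libraries, so no cell type is named. Mitochondrial UMIs made up 10.5 to 17.4% of these cells, against a median of 5.03% on LFD and 5.12% on HFD in the other 46.

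**Figure D2:**
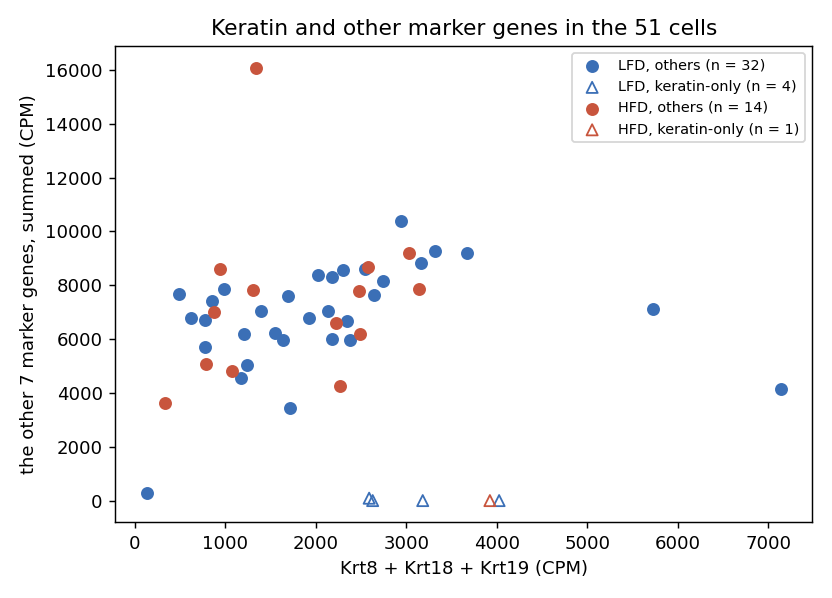
Each of the 51 cells by the summed CPM of Krt8, Krt18 and Krt19 (horizontal axis) and of the other 7 marker genes (vertical axis), LFD in blue and HFD in red, with open triangles for keratin-only cells. The 5 keratin-only cells lie between 0 and 89.3 CPM on the vertical axis, and the other 46 cells between 269 and 16086 CPM.

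Levels are therefore given for the 46 cells (32 LFD, 14 HFD) without the keratin-only cells unless all 51 are named. These 46 still include the LFD cell with single UMIs of Krt19, Wt1 and Nkain4, for which the label is also in doubt. In it the 7 markers other than keratins summed to 269 CPM, and it held 177 Dcn, 153 Gsn, 31 C7 and 0 Slpi UMIs. The share of the 46 cells was 3.03% on LFD and 1.25% on HFD, a log2 ratio of -1.27 (-2.17 to -0.37). Against fibroblasts that ratio was -0.88, and its interval (-1.90 to 0.07) included 0. All 10 genes were detected in 16 of 32 LFD cells (50%) and in 6 of 14 HFD cells (42.9%), and at least 8 of them in 27 and 13 cells.

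Upk3b, a surface-protein gene, reached the highest level. The 3′ counting reads each molecule once, so levels of different genes need no scaling by length. Upk3b had 882 LFD UMIs (2374 CPM, 2220 to 2536) and 389 HFD UMIs (2503 CPM, 2260 to 2764). Over single cells it ranged from 0 to 3443 CPM on LFD with a median of 2345, and from 824 to 5362 CPM on HFD with a median of 2100. It was the only one of the 10 genes whose interval lay above those of all others in both libraries.

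Nkain4, Krt19, Msln and Gpm6a followed. Nkain4 stood at 1351 CPM (1236 to 1475) on LFD and 1222 CPM (1055 to 1409) on HFD, and Krt19 at 1314 and 1132 CPM. Msln stood at 1077 CPM (974 to 1188) and 1119 CPM (959 to 1299), and Gpm6a at 913 and 920.0 CPM. Neighbours in this order had overlapping intervals in both libraries, apart from Krt19 and Msln on LFD. Krt19 was the gene detected most widely, with a UMI in all 46 cells, and its single-cell level ran from 134 to 5635 CPM on LFD and from 330 to 1805 CPM on HFD.

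Lrrn4, Upk1b, Krt18, Krt8 and Wt1 were lower. Lrrn4 had 608 CPM on LFD and 495 on HFD, and Upk1b 559.9 and 772 CPM. Krt18 had 417 and 695 CPM, and its partner filament Krt8 had 334 and 341 CPM. Wt1 was the lowest of the 10 at 320.4 CPM (265 to 383) and 335 CPM (250 to 439), with an interval overlapping that of Krt8 in both libraries. The order of the others differed by library, with Lrrn4 first of these 5 on LFD and Upk1b first on HFD. Krt8 and Krt18 were each at 0 in 10 of 32 LFD cells, more than any other of the 10 genes. On HFD, Krt18 and Wt1 were each at 0 in 4 of 14 cells and Krt8 in 3.

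**Figure D3:**
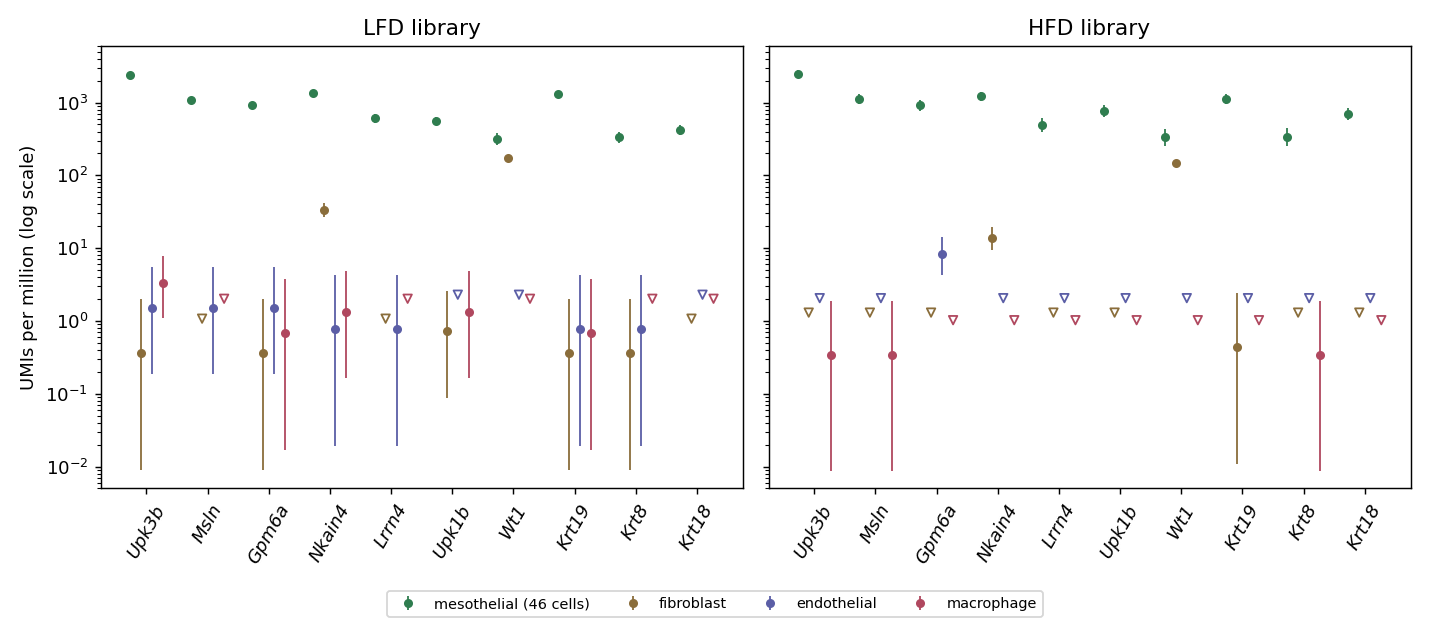
Level of each marker gene (CPM, log scale) in mesothelial cells without keratin-only cells, fibroblasts, endothelial cells and macrophages of the LFD and HFD libraries, with bars for 95% Poisson intervals and open triangles for the level that 0 UMIs allows. Wt1 stands at 173 and 147 CPM in fibroblasts and Nkain4 at 33.7 and 13.9 CPM, while each of the other 8 genes is below 10 CPM in the 3 other classes.

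Wt1 was the exception among the 10 genes, since most of its UMIs lay in fibroblasts. It had 484 UMIs in LFD fibroblasts (173 CPM, 158 to 190) and 338 in HFD fibroblasts (147 CPM, 132 to 163). A UMI was present in 212 of 347 and 159 of 279 fibroblasts (61.1% and 57.0%). Endothelial cells and macrophages had 0 Wt1 UMIs in both libraries, which allows up to 2.29 and 2.06 CPM in LFD and HFD endothelial cells and 2.02 and 1.03 CPM in macrophages. Their median depths of 6486 and 5804 UMIs and of 6328 and 6915 UMIs were not far below those of fibroblasts, so the fibroblast share was above background. With every cell thinned to 1000 UMIs, Wt1 remained in 14.0% of LFD and 11.5% of HFD fibroblasts and in 0 endothelial cells and macrophages, while of all 51 mesothelial cells it remained in 10 of 34 deep enough on LFD and 0 of 14 on HFD. Mesothelial cells, all 51 taken, held 19.2% of the Wt1 UMIs on LFD and 12.8% on HFD.

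Nkain4 lay between Wt1 and the rest. Fibroblasts held 94 LFD UMIs (33.7 CPM, 27.2 to 41.2) in 49 cells and 32 HFD UMIs (13.9 CPM, 9.51 to 19.6) in 21 cells. Endothelial cells held 1 and 0 Nkain4 UMIs, and macrophages 2 and 0. Mesothelial cells held 83.5% and 84.8% of its UMIs.

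The fibroblast Wt1 signal was not confined to early progenitors. Pi16 encodes a secreted peptidase inhibitor and marks early adipose progenitors, and the split by its UMIs was chosen after the data were seen. LFD fibroblasts with at least 3 Pi16 UMIs had 183 CPM of Wt1 (156 to 213, 103 cells), against 156 CPM (136 to 178, 191 cells) in those with 0. On HFD these levels were 144 and 143 CPM, so the intervals overlapped in both libraries.

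Between diets, Wt1 in fibroblasts had an HFD over LFD ratio of 0.846 (0.734 to 0.974) and Nkain4 one of 0.413 (0.267 to 0.622). Both intervals left out 1. No diet test was possible with 1 library per diet.

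The other 8 genes were near the floor outside mesothelial cells. Summed over the 8, fibroblasts held 6 LFD UMIs (2.15 CPM, 0.789 to 4.68) and 1 HFD UMI (0.434 CPM), against 7597 and 7977 CPM in the 46 cells. All 10 genes summed gave 7.65 and 8.24 CPM in endothelial cells, 7.40 and 1.03 CPM in macrophages, and 40.6 and 7.37 CPM in cells of no class. At least 1 UMI of any of the 10 was seen in 4.70% and 1.45% of endothelial cells and in 3.91% and 0.935% of macrophages, which sets the background. Of the 12 UMIs of Gpm6a in HFD endothelial cells, 10 lay in a single cell. Msln had 0 UMIs in fibroblasts of either diet, which allows up to 1.08 and 1.30 CPM.

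In barcodes with the fewest genes the markers were not seen. The 56 LFD and 27 HFD barcodes under 200 genes held 0 UMIs of the 10 genes, which allows up to 39.3 and 129.7 CPM.

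Since the 10 genes chose the cells, each was also looked at in cells picked by at least 3 of the other 9. Krt19 was then detected in 30 of 30 LFD and 14 of 14 HFD cells, against 0.974% and 0.181% of all remaining cells. Msln was detected in 28 of 35 and 14 of 15 cells, and Upk3b in 29 of 36 and 14 of 15. Krt8 appeared in 23 of 33 and 11 of 14 cells, the lowest LFD share of the 10 together with Krt18. Wt1 appeared in 26 of 34 and 10 of 15 cells, but also in 21.8% and 15.5% of the rest. Each gene was thus found in a majority of cells chosen without it, and Wt1 alone was also common elsewhere.

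The summed level of the 10 genes was nearly the same on both diets. In all 51 cells it was 8340.5 CPM (8073 to 8614) on LFD and 8964 CPM (8523 to 9421) on HFD, a ratio of 1.07 (1.01 to 1.14). Without keratin-only cells it was 9269 and 9534 CPM, a ratio of 1.03 (0.967 to 1.09). The sign of this small difference turned when the deepest cell of each library was left out, with a log2 ratio of -0.03, and when 2 genes sufficed to choose a cell, with -0.12.

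Gene by gene, Upk1b and Krt18 stood apart. Upk1b had 208 LFD and 120 HFD UMIs in all 51 cells (472 and 694 CPM), a ratio of 1.47 (1.16 to 1.85). Krt18 had 213 and 125 UMIs (483 and 722 CPM), a ratio of 1.496 (1.19 to 1.87). Without keratin-only cells the ratios were 1.38 (1.09 to 1.73) and 1.67 (1.29 to 2.14). Single cells overlapped widely, with Krt18 from 0 to 1161 CPM on LFD and from 0 to 1478 CPM on HFD. Its median cell was higher on LFD (369 CPM) than on HFD (286 CPM), so the pooled Krt18 difference did not hold for the typical cell. For Upk1b the medians were 564 and 794 CPM.

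The other 8 genes had intervals that included 1. Their ratios in all 51 cells ran from 0.834 for Krt8 to 1.12 for Upk3b. Krt8 moved to 1.02 without keratin-only cells, which held 148 of its 272 LFD UMIs and 36 of its 89 HFD UMIs. In these sets of cells none of the 10 genes reached a 2-fold difference, against 1.4% of 1934 genes at least 2-fold higher and 2.22% at least 2-fold lower on HFD, among genes with at least 50 UMIs in mesothelial cells. Under the study's filter, with 5 LFD and 2 HFD cells, Msln had a log2 ratio of 1.34, Gpm6a of 1.19 and Krt19 of -1.05.

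**Figure D4:**
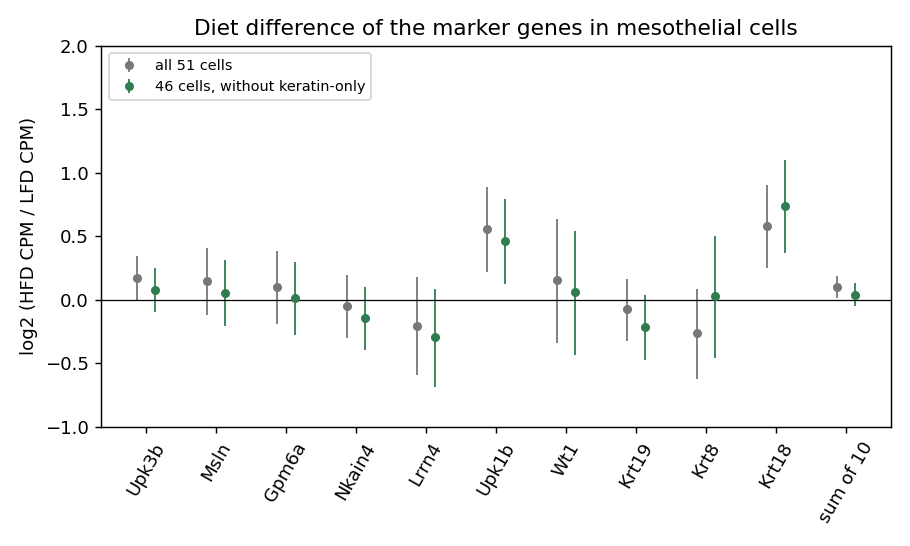
HFD over LFD ratio (log2 of the CPM ratio) of each marker gene and of their sum in all 51 mesothelial cells (grey) and in the 46 cells without keratin-only cells (green), with bars for exact 95% counting intervals and 1 library per diet. The intervals of Upk1b and Krt18 lie above 0 in both sets, and that of the sum does so in the 51 cells only.

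Mesothelial cells shared a wider set of genes that the rule did not use. A ratio here is the CPM in mesothelial cells over that in all other cells, with 20 CPM added to both, and the lower value of the 2 libraries is given. Ratios, and the levels given with them, are for all 51 cells unless the 46 are named. Of 20 other genes listed for mesothelium, 18 had at least 50 UMIs and 11 of these were at least 4-fold higher, against 1.09% of 11380 genes (124). Without keratin-only cells it was 12 of 18, against 1.1% of 11332 genes (125). With the minimum of UMIs applied to the other cells alone, an alternative added after the data were seen that leaves out Muc16 and Bnc1, it was 9 of 16 in the 51 cells, against 0.705% of 11208 genes (79), and 10 of 16 in the 46 cells, against 0.767% (86). Calb2 and Itln1 had 0 UMIs in all cells. The gene lists were chosen with earlier results of these data known. These counts are therefore a description and no independent support for the label.

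Slpi, an inhibitor of leukocyte proteases, had the highest ratio of these listed genes. It had 3319 LFD and 1778 HFD UMIs (7526 and 10276 CPM) in the 51 cells, against 4.24 and 16.9 CPM in all other cells, and a lower ratio of 279. It was detected in 75% of LFD and 80% of HFD mesothelial cells. The secreted chaperone Clu followed with 1318 and 1601 CPM, a ratio of 54.5, and Igfbp5, which binds insulin-like growth factors, with 2254 and 2537 CPM and a ratio of 24.2.

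Further listed genes had lower ratios. Muc16, a large surface mucin, had 140 LFD and 55 HFD UMIs and 0 in all other cells. Rspo1, a secreted activator of Wnt signalling, had a ratio of 15.8, with 75.3 and 48.2 CPM in fibroblasts. Bnc1, a zinc-finger protein of epithelia, had 37 and 18 UMIs and a ratio of 5.16. Prg4, a lubricating proteoglycan, was the listed gene lowest against other cells, at a ratio of 0.644, and the complement gene C3 reached 3.34.

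Among coelomic transcription factors 2 of 7 tested genes passed 4-fold, Bnc1 and Osr1, against 1.09% of all genes, and with the minimum in other cells alone 1 of 6 did, Osr1. Osr1 had 595 and 489 CPM in the 46 cells against 176 and 89.5 CPM in fibroblasts. Gata6 had 172 and 219 CPM in the 46 cells against 71.0 and 47.3 CPM. Isl1 held 37 LFD and 7 HFD UMIs in the 46 cells and 0 in fibroblasts. Tcf21 went the other way, with 5 and 0 UMIs in the 46 cells and 136 and 103 CPM in fibroblasts, as did Nr2f1, with 2 and 0 UMIs against 41.2 and 36.5 CPM.

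Enzymes and junction genes differed in how far they were restricted to mesothelial cells. Aldh1a1, an enzyme of retinoic acid synthesis, had 616 and 630.5 CPM in the 46 cells. Aldh1a2, another enzyme of that synthesis, had 37 and 10 UMIs and a ratio of 1.63, with 24.0 and 34.3 CPM in fibroblasts. In the junction and polarity list 1 of 7 tested genes passed, against 1.09% of all genes, namely the claudin Cldn15, which endothelial cells also held at 171 and 187 CPM. Cdh1, the epithelial cadherin, had 0 UMIs in the 46 cells.

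Of 10 basement membrane genes, 0 passed 4-fold in the 51 cells, against 1.09% of all genes, and 1 did in the 46 cells (1.1% of all genes), Nid2, which links laminin and collagen networks. Col4a1 and Col4a2 were lower than in other cells, at ratios of 0.118 and 0.105. Of 15 genes tied to the mesothelial-to-mesenchymal change, 1 passed in the 51 and in the 46 cells, against 1.09% and 1.1% of all genes. It was Acta2, a smooth muscle actin, with 358 and 682 CPM in the 46 cells. Vim was abundant, at 3182 and 2367 CPM in those 46 cells, and Fn1 was low at a ratio of 0.0534. In the inflammatory and antimicrobial list 3 of 14 passed, against 1.09% of all genes, namely Slpi, Lcn2 and the alarmin Il33. The chemokine genes Cxcl1 and Ccl2 were at ratios of 0.0366 and 0.0637. Lcn2 met the minimum of UMIs only through the mesothelial cells. With the minimum in other cells alone 2 of 13 passed, Slpi and Il33, against 0.705% of all genes.

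Keratins and uroplakins beyond the 10 genes were few. Krt7 had 117 LFD and 51 HFD UMIs in mesothelial cells and 0 in fibroblasts, endothelial cells and macrophages. Krt14 had 58 LFD and 2 HFD UMIs, with 32 of the LFD UMIs in a single cell. Of the other uroplakins Upk1a, Upk2, Upk3a and Upk3bl, mesothelial cells held 1 Upk3a UMI. Within the family, Upk3b and Upk1b were thus high and these 4 at or near 0.

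By a rule on the ratio to other cells, 20 genes outside the 10 were most like them, among genes detected in at least 25% of mesothelial cells of each library. Besides Slpi, Clu, Igfbp5, Muc16, Rspo1 and Krt7 these were Fgf1, Lgals7, C2, Csrp2, Lcn2, Atp1b1, Cldn10, Fmod, Tmem151a, Mroh2a, Cdh11, Chrdl1, Cxadr and Pkhd1l1. Fgf1, a growth factor, had 821 and 711 CPM and a ratio of 25.5. Lgals7, a galectin of epithelia, had 814 and 416 CPM and a ratio of 20.1, and the complement protease gene C2 one of 19.8. Cdh11, a cadherin known from mesenchymal cells, had 277 and 272 CPM in the 51 cells against 5.74 and 14.8 CPM in fibroblasts. Under the study's filter, which keeps 5 LFD and 2 HFD mesothelial cells, the direction turned for Igfbp5 and Tmem151a.

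Some of these genes were shared with the keratin-only cells. Those cells held 124 of 185 LFD and 34 of 82 HFD Lcn2 UMIs in mesothelial cells, and without them the Lcn2 ratio fell from 18.8 to 7.88. Csrp2, a LIM domain protein, kept a ratio of 19.9 without them. Of the 10 marker genes, Upk3b had a ratio of 89.8, Krt19 of 56.1 and Msln of 45.4, and Wt1 had 3.11, below 174 other genes. Because the 10 genes chose the cells, high ratios of theirs are built into the rule. They cannot be ranked on equal terms with genes that the rule did not use.

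Against fibroblasts, mesothelial cells shared Dcn and Col1a1, were low in Gsn, Lum, Pdgfra and Pi16, and were higher in Dpp4. Col1a1, a fibrillar collagen gene, was present in 28 of 32 LFD and 12 of 14 HFD cells. Its level was 571 and 733 CPM, against 1001 and 1949 CPM in fibroblasts. Pi16 had 10 UMIs, all in 1 LFD cell, and 0 on HFD, against 455 and 182 CPM in fibroblasts. Dcn was present in all 46 cells, at 14790.0 and 14855 CPM against 20507 and 17074 CPM in fibroblasts, and 30 of the 36 LFD and 14 of the 15 HFD mesothelial cells met the fibroblast threshold. Gsn, an actin-severing protein abundant in fibroblasts but outside the fibroblast list, had a median of 85.6 and 151 CPM per cell against 21997 and 26387 CPM. Lum, a matrix proteoglycan like Dcn, had 14 UMIs (37.7 CPM) on LFD, 10 of them in the cell with single UMIs of 3 markers, and 0 UMIs on HFD, which allows up to 19.3 CPM, against 624 and 1757 CPM. Pdgfra, a growth factor receptor of fibroblasts, had 32.3 and 12.9 CPM against 413 and 304 CPM. Dpp4, a surface peptidase, was the fibroblast-list gene higher in mesothelial cells, at 388 and 508 CPM against 143 and 68.2 CPM.

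Some markers of other cell types were present in the 46 cells, and their part in the results was not tested. The 5 endothelial genes summed to 91.5 and 77.2 CPM, against 8.96 and 13.9 CPM in fibroblasts, nearly all of it the receptor gene Kdr, with 4 of 5 genes at 0 on LFD and 2 of 5 on HFD, Cldn5 and Egfl7 in both. The 6 macrophage genes summed to 43.1 and 51.5 CPM, against 15.8 and 15.6 CPM in fibroblasts, led by Csf1r, with 4 of 6 at 0 in each library, Ptprc among them. T and B cell genes (0 of 4 detected) and adipocyte genes (0 of 4) had 0 UMIs, which allows up to 8.08 and 19.3 CPM. Lymphatic endothelial genes held 2 LFD UMIs, both of Lyve1, and Schwann cell genes 3 and 1 UMIs, all of Ncam1. The 4 mural genes summed to 372 and 695 CPM, against 12.9 and 65.2 CPM in fibroblasts, led by Acta2, with Rgs5 at 1 and 0 UMIs. The 6 epididymal epithelium genes had 0 UMIs in the 46 cells, and in all 51 cells they summed to 134 and 133 CPM, led by Epcam with 4 of 6 genes at 0.

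No mesothelial cell met the endothelial or the macrophage threshold. Scrublet, a doublet caller, marked 21 LFD cells (1.99%) and 28 HFD cells (2.51%), of which 4 and 1 were mesothelial, and doublets were kept in the values above.

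Across the transcriptome, the number of genes that differed by diet in mesothelial cells depended on the settings. Of 1934 genes with at least 50 UMIs, 27 were at least 2-fold higher on HFD and 43 at least 2-fold lower. Without keratin-only cells it was 20 (1.2%) and 30 (1.81%) of 1660 genes. The median log2 ratio over all genes was 0.01. The count of 70 genes became 486 at a minimum of 20 UMIs and 15 at 100, and 183 (82 higher, 101 lower) by the mean of single-cell CPM.

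Over all gene lists only Acta2, higher on HFD, and Krt14, lower, reached 2-fold in the 51 cells. Of 16 other mesothelial genes, 12 lay above 0 with a median log2 ratio of 0.28 in the 51 cells, against 990 of all 1934 genes, and none reached 2-fold. In the 46 cells 11 of the 16 lay above 0, against 848 of all 1660 genes, with a median of 0.134. Efemp1, a fibulin of the extracellular matrix, had the highest ratio of these without keratin-only cells, at 2038 and 3345 CPM and a ratio of 1.64 (1.47 to 1.84). Dmkn, a secreted protein of epithelia, was lower, at a ratio of 0.614 (0.421 to 0.875) in the 51 cells and 0.672 (0.451 to 0.979) in the 46 cells. In the 46 cells, 1 cell held 56 of its 128 LFD UMIs and 1 cell 14 of its 36 HFD UMIs. Dmkn was detected in 15 of 32 LFD and 6 of 14 HFD cells, and its ratio without those 2 cells was not computed. Slpi had a ratio of 1.28 (1.21 to 1.36) in the 46 cells, where 1 cell held 1065 of the 3319 LFD UMIs and 1 cell 801 of the 1778 HFD UMIs. Acta2 reached 2.03 (1.56 to 2.64) in all 51 cells and 1.90 (1.46 to 2.48) without keratin-only cells, detected in 17 of 32 LFD and 10 of 14 HFD cells. Of the 6 mesothelial-to-mesenchymal genes tested, Acta2 among them, 5 lay above 0 in the 51 and in the 46 cells. Over all genes 990 of 1934 and 848 of 1660 did so. The median log2 ratio of the 6 genes was 0.438 in the 51 cells and 0.345 in the 46 cells. In the 46 cells Tagln, an actin-binding protein, had a ratio of 1.66 (1.02 to 2.67), the fibrillar collagen genes Col1a1, Col1a2 and Col3a1 had 1.29 (1.01 to 1.62), 1.22 (1.03 to 1.44) and 1.26 (1.13 to 1.40), and Vim had 0.744 (0.660 to 0.837). The Tagln ratio rested on few cells, with detection in 6 of 32 LFD and 7 of 14 HFD cells. A single cell held 22 of its 46 LFD UMIs, and another held 13 of its 32 HFD UMIs.

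A rule named the 10 genes with the highest ratios, at least 2-fold with an interval that left out 1 and detected in at least 25% of cells of the higher library. In all 51 cells these were Fibin, Sfrp2, Fst, Cdkn1a, Hspa1a, Figf, Smoc2, Matn4, Timp3 and Ankrd12. Fibin, a secreted protein gene, had 29 LFD UMIs in 18 cells and 46 HFD UMIs in 11 cells, a ratio of 4.04 (2.49 to 6.67). Sfrp2, a secreted Wnt modulator, had 41 and 53 UMIs and a ratio of 3.29 (2.15 to 5.08), and Fst, which binds activin, had 28 and 35 UMIs and a ratio of 3.19 (1.88 to 5.44). Smoc2, a matricellular protein, had 197 and 491 CPM and a ratio of 2.49 (1.82 to 3.40). The Smoc2 difference was not stable, since its log2 ratio of 1.32 became 0.62 by the mean of single-cell CPM. In the study's filter it was 0.0155. Timp3, an inhibitor of metalloproteinases, had 390.04 and 925 CPM, a ratio of 2.37 (1.90 to 2.96), with 54 of 160 HFD UMIs in 1 cell. The other 5 genes of the group had ratios from 2.33 for Ankrd12 to 2.797 for Cdkn1a, an inhibitor of the cell cycle.

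The 10 lowest in those cells were Gsn, Ly6a, Galnt15, Nudt19, Col6a5, Adam23, Tnrc6c, Ugdh, Txnip and Sgce. Gsn had 437 LFD and 23 HFD UMIs, a ratio of 0.134 (0.0841 to 0.204), but 237 and 153 of the LFD UMIs lay in a pair of cells. One of them carried all 10 markers and the other was the cell with single UMIs of 3 markers. Without that pair, left out after the values were seen, Gsn had 113 and 133 CPM and a ratio of 1.18 (0.681 to 1.98), so the difference rested on those cells.

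Ly6a, a surface antigen of progenitors, had 160 LFD and 10 HFD UMIs, a ratio of 0.159 (0.0749 to 0.301), and 63 of the LFD UMIs lay in keratin-only cells. Without keratin-only cells its ratio was 0.0985, at 261 and 25.7 CPM, and 17 of 32 LFD against 3 of 14 HFD cells carried it. Col6a5, a collagen chain, had 143 and 13 UMIs and a ratio of 0.232 (0.120 to 0.409). Txnip, a glucose-responsive inhibitor of thioredoxin, had 539.7 and 179 CPM and a ratio of 0.332 (0.221 to 0.484), detected in 31 of 36 LFD and 9 of 15 HFD cells. For Nudt19, 30 of 46 LFD UMIs lay in keratin-only cells.

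Of these 20 genes, Cdkn1a and Gsn changed direction when 2 genes sufficed to choose a cell, and Figf, Ankrd12 and Adam23 did so under the study's filter. Others fell nearer to 0 and outside the main interval when 2 genes sufficed, with log2 ratios of 0.88 for Sfrp2, 0.57 for Fst, 0.49 for Timp3, 0.47 for Ankrd12, -0.51 for Ly6a, -0.33 for Sgce, -1.03 for Txnip and -0.0611 for Col6a5. In the 46 cells the same rule named Tnfrsf12a, with a ratio of 3.58 (2.08 to 6.28), and Ucp2 in place of Hspa1a and Ankrd12, and Ldha, C7 and Cd63 in place of Nudt19, Txnip and Sgce. Leaving out the cell with most UMIs, an alternative added after the data were seen, took Matn4 to a ratio of 1.76 (0.898 to 3.34) and Nudt19 to 0.416 (0.104 to 1.22) in the 51 cells, and C7 from 0.305 to 0.878 (0.281 to 2.36) in the 46 cells, intervals that included 1. For C7 that cell, with 31 of the 47 LFD UMIs, was the one with single UMIs of 3 markers.

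In the genome (GENCODE M21 annotation, GRCm38), the 10 genes are protein-coding and lie on 7 chromosomes. Msln (ENSMUSG00000063011) spans chr17:25748613-25754378, Upk3b (ENSMUSG00000042985) chr5:136038496-136046487 and Upk1b (ENSMUSG00000049436) chr16:38773184-38800328. Lrrn4 (ENSMUSG00000043110) spans chr2:132868305-132880891, Wt1 (ENSMUSG00000016458) chr2:105126529-105173616 and Nkain4 (ENSMUSG00000027574) chr2:180934772-180954699. Gpm6a (ENSMUSG00000031517) spans chr8:54954843-55060871 and Krt19 (ENSMUSG00000020911) chr11:100140810-100148665. Krt8 (ENSMUSG00000049382, chr15:101996698-102004482) and Krt18 (ENSMUSG00000023043, chr15:102028180-102032027) are neighbours on opposite strands, 23697 bases apart with 0 coding genes between them. Of the 10, only Nkain4 overlaps another gene of the tables, Gm14341 on the other strand, which had 0 UMIs in mesothelial cells and fibroblasts.

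Wt1 has an antisense neighbour, Wt1os, with 6 LFD and 2 HFD UMIs in mesothelial cells and 12 and 7 in fibroblasts. Both genes were thus seen in both classes, Wt1os at far lower counts.

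Promoters are shown for the surface-protein genes whose entries shared a motif, chosen after the search was run, as a description of genes detected in the same cells. RefSeq promoter entries (GRCm38.p6, 250 bases before to 50 after a start) were matched for 5 of the 10 genes by symbol, Upk3b, Lrrn4, Krt8, Krt18 and Gpm6a, with 6 entries in all. On either strand, GGAATG, the letters of TEAD-type sites, was found in 3 of the 6 entries and in 14.7% of 32851 promoters. GGGCGG, the GC box, was found in 1 entry (35.7% of all promoters) and GCGTGGG, a core shared by EGR1 and WT1 sites, in 0 (5.04%). The 250 bases before the start of each entry with GGAATG follow, 5′ to 3′ on the gene's strand, with that motif or its reverse complement CATTCC in capitals. A match is a match of letters only. The stretches are chr5:136038246-136038495 (+) for Upk3b, chr2:132880863-132881112 (-) for Lrrn4 and chr8:54779184-54779433 (+) for Gpm6a. The Gpm6a stretch lies outside and before the annotated span of the gene, and the other Gpm6a entry, next to that span at chr8:54954478-54954777, had no GGAATG.
Upk3b: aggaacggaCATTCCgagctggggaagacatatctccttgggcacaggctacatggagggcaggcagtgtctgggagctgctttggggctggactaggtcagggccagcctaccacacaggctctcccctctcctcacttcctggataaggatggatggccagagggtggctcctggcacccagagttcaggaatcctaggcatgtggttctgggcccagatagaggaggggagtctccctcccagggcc
Lrrn4: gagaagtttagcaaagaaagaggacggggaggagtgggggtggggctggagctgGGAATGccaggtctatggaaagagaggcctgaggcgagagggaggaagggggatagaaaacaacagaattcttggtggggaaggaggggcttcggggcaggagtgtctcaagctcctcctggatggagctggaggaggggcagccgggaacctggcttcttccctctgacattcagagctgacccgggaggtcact
Gpm6a: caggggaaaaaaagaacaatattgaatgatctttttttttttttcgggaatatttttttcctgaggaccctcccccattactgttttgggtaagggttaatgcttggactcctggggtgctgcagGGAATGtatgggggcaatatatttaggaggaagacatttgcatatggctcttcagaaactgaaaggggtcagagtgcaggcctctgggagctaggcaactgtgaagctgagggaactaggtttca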

How the data were processed

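The stromal vascular fraction of epididymal fat was profiled with 10x Chromium 3′ v3 in 1 library per diet. The authors aligned reads to mm10 and counted UMIs with Cell Ranger (3.0.2 per the file headers; the study's methods name a later release), and deposited raw UMI counts per gene and barcode, without normalization. The members and the gene lists were chosen with earlier results of these data known.

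Computed here with Python 3.11.15, numpy 2.4.6, scipy 1.17.1, pandas 2.3.3 and scanpy 1.11.5 (Scrublet), CPM is UMIs per 1000000 of a class's summed UMIs. Cells had at least 200 genes, and no upper limit or mitochondrial limit was set. Intervals (95%) are exact Poisson for CPM, exact binomial for shares and Katz for ratios of shares of all cells. They are conditional binomial for CPM ratios and for ratios of mesothelial cells per fibroblast. The level that 0 allows is 3 UMIs. The ratio functions were tested on simulated counts. Thinning drew each cell to 1000 UMIs and left out shallower cells.

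Named genes were all 10 markers, the 20 others with the highest ratio to other cells (CPM + 20, detected in at least 25% of mesothelial cells of each library), the 10 highest and 10 lowest by diet (at least 50 UMIs, 2-fold, interval without 1, detected in at least 25% of cells of the higher library) and the members of the lists. The rules on ratio and diet skipped genes of the mitochondrial genome, of ribosomal proteins, of haemoglobins and of the Y chromosome, and Xist. Alternatives changed the number of genes that choose a cell, the genes used, the filter, overlap with other classes, doublets, depth, pooling, the minimum of UMIs and class thresholds. GENCODE M21 placed 27645 of 27998 gene IDs.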

Additional observations from a re-analysis of the deposited data

Results flagged for a closer look

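Wt1 had diet ratios of opposite sign in 2 classes of cells. Its log2 HFD over LFD ratio was 0.16 (0.155, interval -0.34 to 0.64) in all 51 mesothelial cells and -0.24 (-0.241, interval -0.45 to -0.04) in fibroblasts. The mesothelial interval included 0, the difference between the classes was not tested, and each value rests on 1 library per diet. In the 46 cells the mesothelial value was 0.0625 (-0.44 to 0.54), and with at least 2 genes to choose a cell it was -0.0108. Averaged over single cells, it was -0.51, and in the cells of the study's filter it was -0.72, so its direction was not stable.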

How the results depend on the processing

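No paired analysis was possible because the results come from no test, with 1 library per diet. The setting without overlap with other classes left 6 LFD cells, 4 of them keratin-only, and 1 HFD cell, also keratin-only, so its values, listed here for completeness, describe no HFD mesothelial cell of the 46. The log2 ratio of the mesothelial share lay between -1.58 and -1.18 in the 9 other alternatives, though the interval in the study's filter (-3.94 to 0.77) included 0, and was -2.66 (-5.72 to 0.39) without overlap.

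The log2 ratio of the summed markers was -0.12 when 2 genes chose a cell, -0.0279 without the deepest cell of each library and 0.19 without overlap. Markers higher on HFD numbered 6 of 10, where 990 of all 1934 genes were higher, and 2 of 10 with 2 genes. Without overlap only the 3 keratins had a value, 2 of them higher, with Krt19 at 1.10. Of 83 values of single markers 70 lay within the main interval, and none of the markers with an interval that left out 0 changed sign. Other mesothelial genes at least 4-fold higher numbered 11, against 6 with 2 genes, 6 in the study's filter and 3 without overlap. Genes at least 2-fold apart by diet numbered 70 of 1934 tested, against 486 of 4601 at 20 UMIs, 15 of 889 at 100 UMIs, 118 of 3524 with 2 genes, 8 of 75 in the study's filter, 20 of 217 without overlap and 183 of 1934 by the mean of single-cell CPM. With cells thinned, a marker UMI was seen in 16.4% of LFD and 11.9% of HFD fibroblasts, 0.444% of LFD macrophages and 3.40% of LFD cells of no class, which fewer UMIs per cell produces.

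Of 179 values of the 20 genes named by diet, 150 lay within the main interval and 10 changed sign. With 2 genes, Cdkn1a had a log2 ratio of -0.26 and Gsn of 0.25. Without overlap, Cdkn1a had -0.31, Timp3 -0.58, Gsn 0.00804 and Tnrc6c 0.69. In the study's filter, Figf had -0.98, Ankrd12 -1.40 and Adam23 0.60. Without the 2 cells with most Gsn UMIs, chosen after the data were seen, Gsn had 0.23.

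Of 180 values of the 20 genes named by the ratio to other cells, 123 moved by at most 1.5-fold and 13 changed sign. Without overlap the log2 of the lower ratio was -0.88 for Slpi, -0.52 for Fgf1, -0.12 for Lgals7, -0.79 for C2, -0.43 for Fmod, -0.12 for Rspo1, -0.0518 for Tmem151a, -0.00875 for Mroh2a, -0.29 for Cdh11, -0.0602 for Chrdl1 and -0.0209 for Pkhd1l1. In the study's filter it was -1.33 for Igfbp5 and -0.12 for Tmem151a. All of the genes turned without overlap, apart from Rspo1, had 0 UMIs in the 1 HFD cell left there. The study's filter keeps 5 LFD and 2 HFD mesothelial cells, and the cause of its turns was not tested.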
